A study of Mus musculus with 12 samples.

Results

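The mitochondrial genome is a small circular DNA that is read on both strands into long precursor RNAs. The tRNAs lie between most of the rRNAs and mRNAs, and cutting at the tRNA ends releases the single transcripts. Its rRNAs form the core of the mitochondrial ribosome, its tRNAs decode the mRNAs there, and its mRNAs encode subunits of respiratory complexes I, III and IV and of the ATP synthase, complex V, whose other subunits are encoded in the nucleus. The heart, which beats on oxidative metabolism, is among the tissues richest in these RNAs.

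The transcripts described here are all rows of the count table whose Ensembl identifier has a symbol that begins with mt- in GENCODE release M21. This rule found 36 of the 37 such genes, out of 26921 genes in the table. They are 13 mRNAs, 2 rRNAs and 21 tRNAs. The remaining tRNA gene, mt-Tf, was not analysed here. On the annotation's plus strand, whose genes are called heavy-strand genes below, lie 12 of the mRNAs, both rRNAs and 13 of the tRNAs. On the minus strand lie the light-strand genes, which are mt-Nd6 and 8 tRNAs. Each member is named by its symbol, with its identifier and position where its values are first given in full.

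RNA of the left ventricle was sequenced from mice 16 weeks old, 6 WT and 6 cmGch1 KO. Both genotypes carried Gch1 alleles flanked by loxP sites (Gch1 flox/flox), and the cmGch1 KO mice carried in addition 1 heterozygous Cre transgene under the α-MHC promoter of cardiomyocytes, so other cells of the ventricle keep the gene. Gch1 encodes GTP cyclohydrolase, the first enzyme of tetrahydrobiopterin synthesis. No library from mice with Cre and unfloxed Gch1 was analysed here, so the effects of Cre and of the deletion cannot be told apart.

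Gch1 itself had 10.7 ± 0.974 cpm in WT libraries, against 5.48 ± 0.855 cpm in cmGch1 KO (SD, n = 6), with no overlap (log2 fold change -0.96, SE 0.11, edgeR quasi-likelihood test, FDR 6.88e-04). Here cpm are counts per 1000000 counts of the library after scaling by TMM, a method that aligns libraries on the bulk of their genes. Totals lay between 19921398 and 37917806 counts per library. The 2 libraries with the smallest totals, cmGch1 KO 2 and 3, had at least 86.7 cpm of Xist, the RNA of the inactive X chromosome, and no count of Ddx3y, Eif2s3y, Kdm5d and Uty, which are Y-linked. The other 10 libraries had at most 0.234 cpm of Xist and at least 167 cpm of the 4 Y-linked genes together. The labels give no sex, and sex cannot be told apart from genotype in these 2 libraries. The main results are given with and without them. All 8 cardiomyocyte markers were tested and none was called, with 7 below 0 and a median log2 fold change of -0.14. Their sum lay between 56621 and 60503 cpm in WT and between 51461 and 57277 cpm in cmGch1 KO libraries. In bulk RNA, fewer cells of a type and less RNA per cell cannot be told apart.

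Some of these genes have near-identical copies in the nuclear genome, left by mitochondrial DNA that was inserted there. Their sequences decide how far the counts can be read. All coordinates are GRCm38 with the GENCODE M21 annotation, and the sequences are its transcripts, 5′ to 3′, with differing bases in capitals. On the minus strand of chromosome 1, chr1:24611535-24616197 holds 7 annotated pseudogenes. Of these, 5 match more than 90% of the length of mt-Co2, mt-Atp6, mt-Co3, mt-Nd3 or mt-Nd4l at 99% identity or more. The first 90 bases of mt-Co3 (chrM:8607-9390) and of its copy Gm28437 (chr1:24613189-24613971) are shown because they are the same letter for letter, as are all 783 aligned bases.
mt-Co3: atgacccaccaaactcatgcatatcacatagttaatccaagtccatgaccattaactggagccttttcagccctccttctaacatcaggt
Gm28437: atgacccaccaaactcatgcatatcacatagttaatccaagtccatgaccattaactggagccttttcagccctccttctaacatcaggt

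For mt-Nd3 (chrM:9459-9806) and Gm28438 (chr1:24612775-24613119), the only mismatch in 345 aligned bases is T3C, counted from the first base of mt-Nd3. The first 33 bases are shown for that difference.
mt-Nd3: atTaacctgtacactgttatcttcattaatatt
Gm28438: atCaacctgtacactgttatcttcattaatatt

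For mt-Co1, whose counts were the largest of all members, the closest full-length copy is Gm13340 (chr2:22588103-22589647), with 37 mismatches in 1545 bases, 97.6% identity. A window of mt-Co1 from base 1063 to base 1162 holds 2 of them, T1072C and C1134T, and shows how far apart the differences lie.
mt-Co1: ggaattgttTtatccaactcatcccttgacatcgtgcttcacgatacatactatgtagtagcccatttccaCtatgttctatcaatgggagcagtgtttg
Gm13340: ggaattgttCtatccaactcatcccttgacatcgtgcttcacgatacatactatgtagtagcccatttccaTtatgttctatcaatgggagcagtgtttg

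The 4 tRNAs with the highest level per kb in WT are shown whole, with their anticodon in capitals. They are mt-Tp for proline, mt-Te for glutamate and mt-Tc for cysteine, all on the light strand, and mt-Tl1 for leucine, on the heavy strand right after mt-Rnr2.
mt-Tp: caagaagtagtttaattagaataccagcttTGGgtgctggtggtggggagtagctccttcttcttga
mt-Te: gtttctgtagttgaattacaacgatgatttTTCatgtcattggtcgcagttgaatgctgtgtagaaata
mt-Tc: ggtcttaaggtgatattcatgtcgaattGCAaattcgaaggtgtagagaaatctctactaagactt
mt-Tl1: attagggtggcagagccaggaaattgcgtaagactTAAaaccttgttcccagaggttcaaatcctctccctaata

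The first question was how much of each library came from the mitochondrial genome. Mitochondrial genes held 18.3% of the counts in the lowest, 21.4% in the median and 22.9% in the highest WT library, and 14.9%, 20.5% and 22.4% in the same order among cmGch1 KO libraries. The group values were 21.2% ± 1.60 in WT and 19.4% ± 3.17 in cmGch1 KO (SD, n = 6). The groups overlapped, and the difference of -1.77 percentage points did not exceed the spread of the libraries (two-sided exact permutation p = 0.255, adjusted p = 0.438 over 12 library-level values). The only libraries below all WT libraries were cmGch1 KO 2, at 14.9%, and cmGch1 KO 3, at 16.1%, which are the 2 libraries with Xist. Without them the cmGch1 KO mean was 21.3% ± 1.21 (SD, n = 4), which is 0.176 percentage points above WT, so the direction of the difference turned (exact permutation test, p = 0.876). Wilson 95% intervals of these shares, which cover counting error only, were at most ± 0.0172 percentage points, far narrower than the differences between libraries.

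The 13 mRNAs made up most of this share. They held 19.6% ± 1.49 of all counts in WT and 18.2% ± 3.02 in cmGch1 KO libraries (exact permutation test, p = 0.307, adjusted p = 0.461). This share also turned without cmGch1 KO 2 and 3, to 0.389 percentage points above WT. The 21 tRNAs held only 0.0462% ± 0.00716 and 0.0415% ± 0.0101 (p = 0.366 by the same exact permutation test, adjusted p = 0.488).

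The 2 rRNAs were the class with the smallest p. Their share was 1.20% in the lowest, 1.52% in the median and 1.73% in the highest WT library, and 0.911%, 1.20% and 1.40% among cmGch1 KO libraries, none of which reached the WT median. The means were 1.49% ± 0.226 and 1.18% ± 0.182 (SD, n = 6). Of the 6 cmGch1 KO libraries, 3 lay below all WT libraries. The unadjusted exact permutation p was 0.0303, which did not hold over the 12 library-level values (adjusted p = 0.208). With cmGch1 KO 2 and 3 left out the difference kept its direction at -0.212 percentage points (exact permutation p = 0.124).

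**Figure D1:**
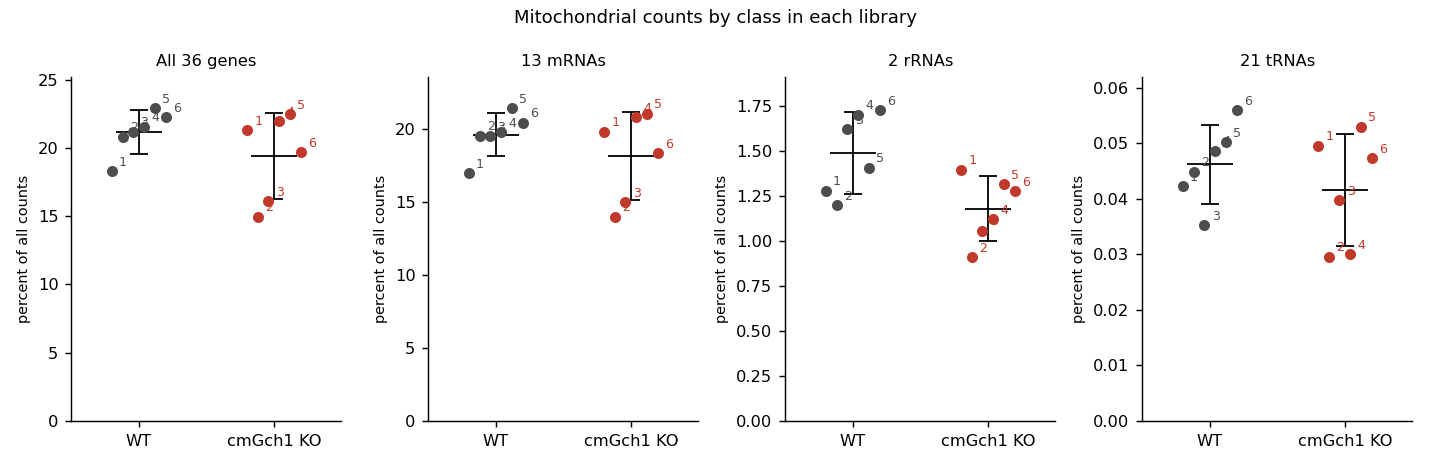
Percent of all counts of each library (vertical axes, from 0) held by all 36 mitochondrial genes, the 13 mRNAs, the 2 rRNAs and the 21 tRNAs, in WT (grey) and cmGch1 KO (red) libraries; each point is 1 library with its replicate number, and bars are the mean ± SD of 6 libraries. cmGch1 KO 2 and 3 sit at 14.9% and 16.1% in the first panel, below the 10 other libraries, and 3 cmGch1 KO libraries lie below all WT libraries for the rRNAs.

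Gene by gene, no mitochondrial transcript passed the test. Of the 36 genes, 28 had over 3 cpm in at least 6 libraries and were tested, namely the 13 mRNAs, both rRNAs and 13 tRNAs. None of the 28 was called between cmGch1 KO and WT by edgeR's quasi-likelihood test at an FDR of 0.05, against 1.12% of all 11225 genes tested (0.445% lower and 0.677% higher). The Wald test of DESeq2 called none of them either, against 3.32% of all genes. At an unadjusted p under 0.05 there were 2 by edgeR, both lower. By edgeR 4.51% of all tested genes were lower and 7.01% higher at that level. DESeq2 also had 2 members at that level, and its share of all genes there is not given here. The log2 fold change was below 0 for 22 of the 28 and above 0 for 6, with a median of -0.18, but with libraries scaled to the mitochondrial total 13 were below 0 and the median was 0.02. Over all tested genes 53.3% were below 0, and the median was -0.01, which that scaling moved to 0.22. No member had groups without overlap, against 1.87% of all tested genes. Once cmGch1 KO 2 and 3 were left out, the members' median was -0.08, and none reached an unadjusted p under 0.05.

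**Figure D2:**
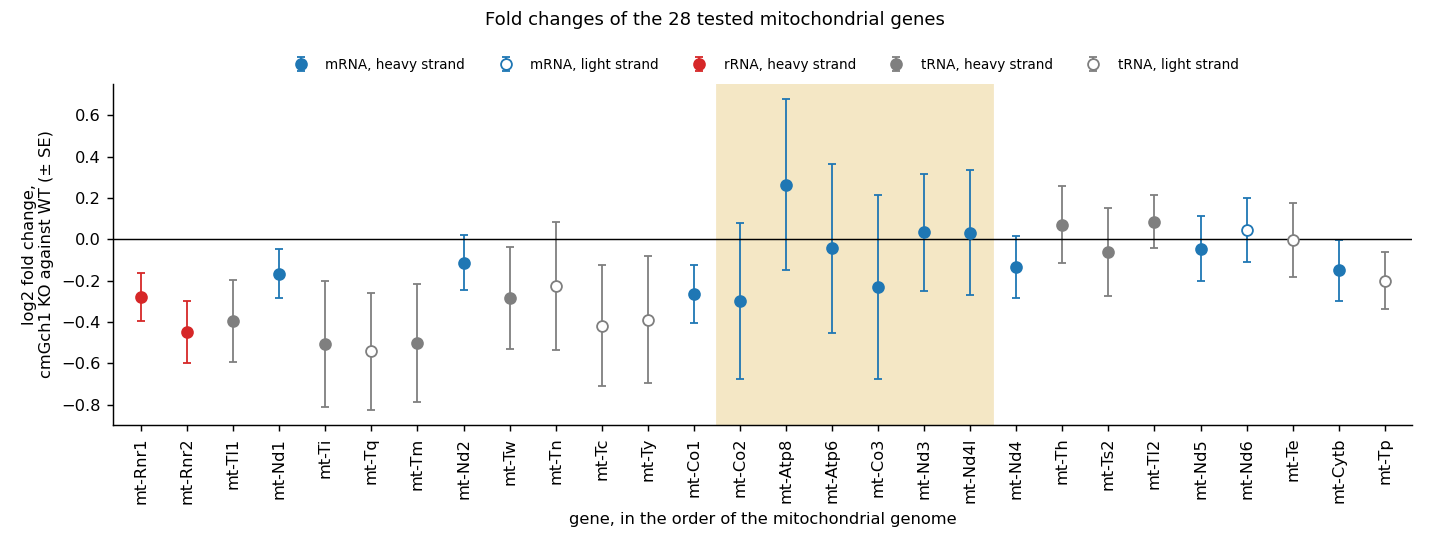
Log2 ratio of cmGch1 KO to WT levels (vertical axis, points with ± SE from edgeR) for the 28 tested mitochondrial genes in genome order; blue is mRNA, red rRNA and grey tRNA, filled points are heavy-strand and open points light-strand genes, and shading marks mt-Co2 to mt-Nd4l. The genes up to mt-Co1 all have values below 0 (12 of 13 without cmGch1 KO 2 and 3, and 11 of 13 scaled to the mitochondrial total), and the shaded mRNAs have the longest error bars among the mRNAs.

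The rRNAs had the smallest p-values. mt-Rnr2 (ENSMUSG00000064339, chrM:1094-2675), the rRNA of the large subunit of the mitochondrial ribosome, had 9079 cpm in the lowest, 12067 in the median and 13792 in the highest WT library. Among cmGch1 KO libraries it had 6012, 8980 and 10620 cpm. The lower group was thus cmGch1 KO, with an overlap between the groups and its lowest value in cmGch1 KO 2. The means were 11708 ± 2017 and 8584 ± 1804 cpm (SD, n = 6). By the fit this was 0.734 of the WT level (log2 fold change -0.45, SE 0.15, edgeR FDR 0.215), and the exact permutation p on cpm was 0.026. DESeq2's Wald test gave an adjusted p of 0.077, the lowest for any member in the 26 fits that were run. Without cmGch1 KO 2 and 3 the log2 fold change was -0.28.

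mt-Rnr1 (ENSMUSG00000064337, chrM:70-1024), the rRNA of the small subunit, had between 3034 and 4406 cpm in WT with a median of 3565, and between 2382 and 3797 cpm in cmGch1 KO with a median of 2904. The groups overlapped here too, and the lowest library was again cmGch1 KO 2. The log2 fold change was -0.28 (SE 0.12, edgeR FDR 0.36), and the exact permutation p on cpm was 0.0476. With cmGch1 KO 2 and 3 left out that fold change was -0.20.

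Both rRNAs are cut from the same end of the heavy-strand precursor, with mt-Tv between them, so their ratio compares neighbours within a library. Each library had more counts of mt-Rnr2 than of mt-Rnr1, 2.99 to 3.57 counts of mt-Rnr2 for each of mt-Rnr1 among WT and 2.40 to 3.31 among cmGch1 KO libraries. Of the cmGch1 KO libraries 4 lay below all WT libraries, and cmGch1 KO 2 and 3 were the lowest of all. The mean log2 ratio was 1.69 ± 0.105 in WT and 1.51 ± 0.183 in cmGch1 KO (exact permutation p = 0.0693, adjusted p = 0.208). Without cmGch1 KO 2 and 3 the difference shrank from -0.18 to -0.07 (exact permutation p = 0.31).

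Against the mRNAs, the rRNAs had 6.13 to 8.61 counts for every 100 mRNA counts in WT libraries and 5.40 to 7.06 in cmGch1 KO libraries. The log2 ratio was lower by 0.21 in cmGch1 KO, which did not hold after adjustment (exact permutation p = 0.0714, adjusted p = 0.208). Leaving out cmGch1 KO 2 and 3 made this difference no smaller, at -0.24 (exact permutation p = 0.105). Whether and how rRNA was depleted or poly(A) RNA selected is not given in the sources used here, and the rRNA counts depend on it.

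**Figure D3:**
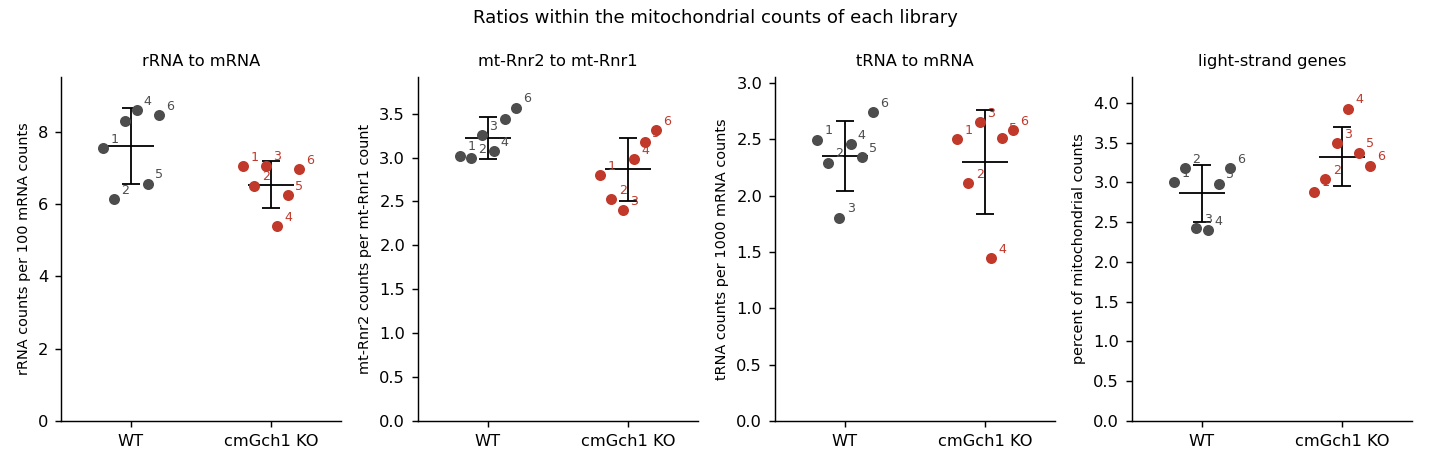
Ratios within the mitochondrial counts of each library (vertical axes, from 0), with rRNA counts per 100 mRNA counts, mt-Rnr2 counts per mt-Rnr1 count, tRNA counts per 1000 mRNA counts, and light-strand genes as percent of mitochondrial counts; points are libraries with their replicate number, WT grey and cmGch1 KO red, and bars are the mean ± SD of 6. For mt-Rnr2 to mt-Rnr1, 4 cmGch1 KO libraries lie below all WT libraries, and for the light-strand share 4 lie above them.

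Levels of the mRNAs, compared per kb of transcript, spanned a wide range. mt-Co1, the catalytic core subunit of cytochrome c oxidase (complex IV), had the highest, 56174 ± 6081 cpm per kb in WT (SD, n = 6). It was followed by mt-Cytb, the cytochrome b of complex III, at 25721 ± 2700 cpm per kb, then mt-Nd1 at 21129 ± 1647 and mt-Nd2 at 17962 ± 2263, both complex I subunits, whose spreads overlapped. A second tier held the complex I subunits mt-Nd5 at 11491 ± 2050, mt-Nd6 at 11225 ± 1593 and mt-Nd4 at 9857 ± 1387 cpm per kb. Their spreads overlapped too. These spreads are between libraries. Within every library mt-Nd5 lay above mt-Nd4 per kb, and mt-Nd1 above mt-Nd2. The other 6 mRNAs, which follow mt-Co1 in the genome, had at most 2605 cpm per kb. The cmGch1 KO libraries kept the first 4 in the same order, from 46722 ± 10144 cpm per kb for mt-Co1 to 16604 ± 3224 for mt-Nd2.

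**Figure D4:**
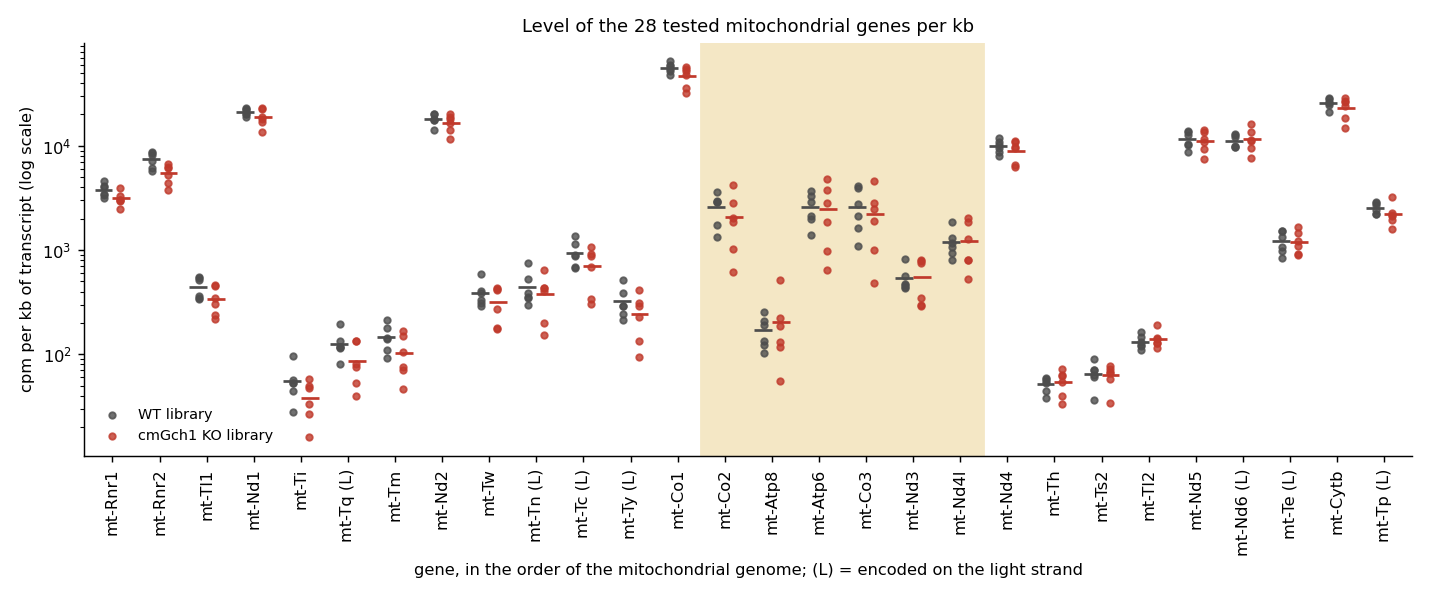
Level of the 28 tested mitochondrial genes in cpm per kb of transcript (vertical log axis) in genome order, with 1 point per library (WT grey, cmGch1 KO red) and a line at each group mean; (L) marks light-strand genes and shading marks mt-Co2 to mt-Nd4l. The shaded mRNAs lie between 170 and 2605 cpm per kb in the WT means, below the 9857 cpm per kb of mt-Nd4, the lowest of the other mRNAs.

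mt-Co1 (ENSMUSG00000064351, chrM:5328-6872) had 73394 cpm in the lowest, 87856 in the median and 99427 in the highest WT library, and 49867, 77692 and 87209 cpm among cmGch1 KO libraries. Its lowest values were 49867 cpm in cmGch1 KO 2 and 55933 cpm in cmGch1 KO 3, and the groups overlapped (log2 fold change -0.27, SE 0.14, edgeR FDR 0.524). Without these 2 libraries the log2 fold change was -0.09. Within the mRNA counts its share was 43.1% ± 2.98 in WT and 40.4% ± 1.57 in cmGch1 KO, with 3 of the 6 cmGch1 KO libraries below all WT libraries (exact permutation p = 0.0866, adjusted p = 0.563 over the 13 mRNAs). mt-Cytb (log2 fold change -0.15, SE 0.15), mt-Nd1 (-0.17, SE 0.12) and mt-Nd2 (-0.11, SE 0.13) also had values below 0, and none passed the test. mt-Nd5 and mt-Nd4 had -0.05 (SE 0.16) and -0.13 (SE 0.15). Without cmGch1 KO 2 and 3, mt-Nd1 had -0.04 and the other 4 had values above 0, from 0.04 to 0.12.

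By complex, the mRNA counts of cmGch1 KO libraries held more of complex I, 41.9% against 39.5%, and less of complex IV, 42.3% against 45.0%. Complex I shares were 36.4% to 42.6% among WT and 39.7% to 44.2% among cmGch1 KO libraries, with 2 cmGch1 KO libraries above all WT libraries. Complex IV shares ran from 41.7% to 48.9% and from 40.1% to 44.4%, with 2 below. Neither held after adjustment (exact permutation p = 0.104 and 0.102, adjusted p = 0.208 for both). Complex III made up 14.6% ± 0.626 and 14.8% ± 0.856, and complex V 0.907% ± 0.382 and 1.03% ± 0.864. Neither of these differed beyond the spread between libraries (exact permutation p = 0.632 and 0.816). Most of the complex IV share was mt-Co1, with 43.1% of the mRNA counts in WT and 40.4% in cmGch1 KO. Most of the complex V share was mt-Atp6, with 0.889% and 1.01%. Counts of mt-Co2, mt-Co3, mt-Atp6, mt-Nd3 and mt-Nd4l, which have near-identical nuclear copies, are uncertain, and so are the shares by complex.

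The low group of 6 mRNAs lay side by side, from mt-Co2 to mt-Nd4l, broken only by tRNA genes. mt-Co2 and mt-Co3 encode core subunits of complex IV, mt-Atp6 and mt-Atp8 subunits of complex V, and mt-Nd3 and mt-Nd4l small membrane subunits of complex I. They varied between libraries of 1 genotype far more than the other mRNAs. Their SD of log2 cpm within genotype was 0.58 to 0.98, which placed them at the 98.6 to 99.7 percentile of all tested genes. The other 7 mRNAs had 0.22 to 0.31, at the 60.2 to 85.2 percentile, and the median of all tested genes was 0.19. The stretch was chosen after these values were seen.

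In 5 of the 6 the highest library was cmGch1 KO 2, and in 4 of the 6 the lowest was cmGch1 KO 3. For mt-Co3 the values were 859 cpm in the lowest, 1922 in the median and 3203 in the highest WT library, and 380, 1716 and 3616 cpm among cmGch1 KO libraries. The highest library was thus 9.52 times the lowest, and both ends lay within the cmGch1 KO group. mt-Co2 had 922 to 2478 cpm among WT and 419 to 2862 cpm among cmGch1 KO libraries, a ratio of 6.84 between the end libraries. mt-Atp6 ran from 954 to 2521 and from 441 to 3298 cpm, a ratio of 7.48. mt-Atp8 had the lowest level per kb of all mRNAs, 170 ± 59.0 cpm per kb in WT, with 21.1 to 52.4 cpm among WT libraries and 11.3 to 105 cpm among the cmGch1 KO ones. mt-Nd3 was exceptional in that its highest value, 285 cpm, was in a WT library, and mt-Nd4l ran from 156 cpm in cmGch1 KO 3 to 605 cpm in cmGch1 KO 2.

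Summed, the 6 mRNAs held 1.68% to 4.92% of the mitochondrial mRNA counts in WT, with a median of 3.03%, and 1.09% to 8.34% in cmGch1 KO, with a median of 2.65%. The means were 3.11% ± 1.21 and 3.25% ± 2.64 (SD, n = 6, exact permutation p = 0.929), and the direction of this difference rested on single libraries. Leaving out cmGch1 KO 2 gave a cmGch1 KO mean of 2.24% ± 0.986, which is 0.87 percentage points below WT (n = 5, exact permutation p = 0.232). Leaving out WT 4 or WT 6 also turned the difference, and leaving out both cmGch1 KO 2 and 3 gave -0.582 percentage points (exact permutation p = 0.429). cmGch1 KO 2, the library with the lowest mitochondrial share, had the highest share of the stretch, and cmGch1 KO 3, the next lowest in mitochondrial share, had the lowest. None of the 6 passed the test, with log2 fold changes from -0.30 for mt-Co2 to 0.27 for mt-Atp8 and SEs of 0.28 to 0.45. The mitochondrial mRNA share without the 6 was 19.0% ± 1.63 in WT and 17.6% ± 3.11 in cmGch1 KO (exact permutation p = 0.342).

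**Figure D5:**
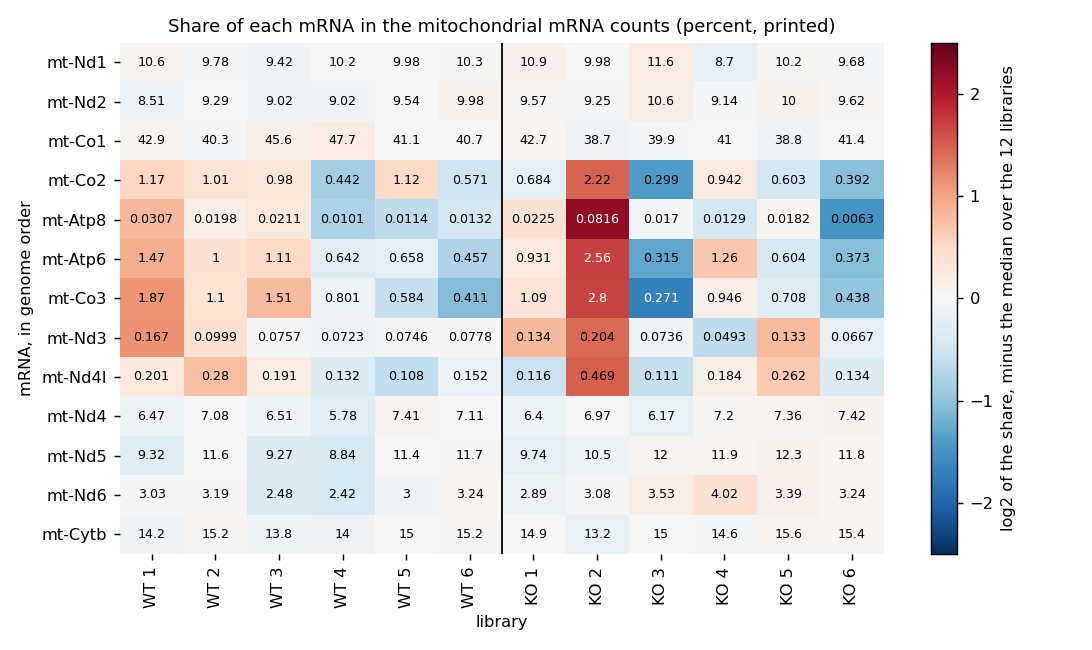
Share of each mRNA in the mitochondrial mRNA counts of each library (printed in percent), with mRNAs in genome order as rows and libraries as columns; the colour is the log2 of the share minus its median over the 12 libraries, red above and blue below. The 6 rows from mt-Co2 to mt-Nd4l are mostly red in cmGch1 KO 2 and mostly blue in cmGch1 KO 3, and the other 7 rows are pale throughout.

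The same stretch is the one with the near-identical copies on chromosome 1, and counts fell on those copies in every library. The 7 copies together had 14114 counts in cmGch1 KO 2, the fewest, and 61022 in cmGch1 KO 4, the most. The mitochondrial stretch had 232482 counts in cmGch1 KO 2 and 35416 in cmGch1 KO 3. For mt-Atp6, whose 678 aligned bases have no mismatch with Gm10925, the copy took 6.56% of the counts of the pair in cmGch1 KO 2 and 37.8% in cmGch1 KO 3. For mt-Co3 and Gm28437 these were 4.11% and 35.8%, and for mt-Co2 and Gm28661 they were 3.72% and 26.5%. The copy's part was thus smallest in the library where the mitochondrial gene was highest. This part falls by construction as the count of the mitochondrial gene rises. Scaled for depth, the 7 copies together had 653 cpm in cmGch1 KO 2, 1001 in cmGch1 KO 3 and 1832 in cmGch1 KO 4. The stretch had 10750, 1522 and 6997 cpm in the same order. How reads that match more than 1 place were counted is not given in the sources used here, so levels of these mRNAs and of their copies are uncertain. The part of such reads in the spread between libraries was not tested.

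mt-Atp8 has no annotated copy transcript. The pseudogenes to either side of its place on chromosome 1, Gm10925 and Gm28661, leave a gap of 233 bases between them, while mt-Atp8 is 204 bases long and shares 43 of these with mt-Atp6. Whether this gap holds an unannotated copy of mt-Atp8 was not tested. Like most mRNAs of the stretch, mt-Atp8 was highest in cmGch1 KO 2. Its lowest value was 11.3 cpm in cmGch1 KO 6, against 23.9 cpm in cmGch1 KO 3. Partial copies also exist for mt-Co1 (Gm29216, 483 aligned bases with the mismatch A1066T) and mt-Nd4 (Gm28439, 876 aligned bases with no mismatch), yet these took at most 0.285% and 2.64% of the counts of their pair. Less similar copies took at most 0.703% of the counts of their pair. Gm13340 had a mean of 97.2 cpm, Gm13339, a copy of part of mt-Nd2, 6.08 cpm, and Gm13341, a copy of mt-Co2 on chromosome 2, 1.75 cpm. No copy row that was tested passed the test. The one with the smallest p was Gm28661 (log2 fold change -0.27, SE 0.19, edgeR FDR 0.692). Counting copy rows together with the mitochondrial genes left each of the 12 library-level values on the same side of 0.

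The light strand was compared through the genes that lie on it. Light-strand genes held 2.40% of the mitochondrial counts in the lowest, 2.99% in the median and 3.18% in the highest WT library, and 2.88%, 3.29% and 3.93% among cmGch1 KO libraries. Of the cmGch1 KO libraries 4 lay above all WT libraries, the highest being cmGch1 KO 4. The means were 2.86% ± 0.358 and 3.32% ± 0.369 (exact permutation p = 0.0563, adjusted p = 0.208), and without cmGch1 KO 2 and 3 the difference was 0.488 percentage points, against 0.46 with them.

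Nearly all of these counts were of mt-Nd6 (ENSMUSG00000064368, chrM:13552-14070), the only light-strand mRNA and a complex I subunit. Its medians lay close together, with 5034, 5742 and 6771 cpm in the lowest, median and highest WT library and 3969, 5861 and 8303 cpm among cmGch1 KO libraries (log2 fold change 0.04, SE 0.16, edgeR FDR 0.963). As a share of mitochondrial mRNA it was 2.89% ± 0.357 in WT and 3.36% ± 0.397 in cmGch1 KO (exact permutation p = 0.0606, adjusted p = 0.563). mt-Nd6 stands out in sequence too, since its RNA has 28.1% G, while the heavy-strand mRNAs have 5.88% to 16.1%. Its 3′ end overlaps that of mt-Nd5 on the opposite strand by 14 bases. The library kit marks strand, but the strand setting of the counting is not given in the sources used here, so counts of light-strand genes and of heavy-strand RNA read across them cannot be told apart.

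Of the 21 tRNAs, 13 were tested, 7 of the heavy and 6 of the light strand. A count on a tRNA gene can come from the tRNA or from a precursor that still holds it, and the table does not separate these. The highest level was that of mt-Tp, the light-strand tRNA next to the control region, with 2542 ± 282 cpm per kb in WT (SD, n = 6). It was followed by mt-Te at 1209 ± 290, mt-Tc at 937 ± 266 and mt-Tl1 at 443 ± 102 cpm per kb, the last close to mt-Tn, for asparagine, at 442 ± 169. Light-strand tRNAs held 78.6% to 81.6% of the tRNA counts in WT and 78.2% to 84.2% in cmGch1 KO libraries.

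None of the 13 passed the test. Of these, 11 had a log2 fold change below 0 and 2 above, with a median of -0.29, which was -0.10 without cmGch1 KO 2 and 3. mt-Tq, for glutamine, had the lowest value. It had 5.78 cpm in the lowest, 8.35 in the median and 13.7 in the highest WT library, and 2.82, 5.53 and 9.57 cpm among cmGch1 KO libraries, with an overlap of the groups (log2 fold change -0.54, SE 0.28, edgeR FDR 0.51). mt-Tl1 had 25.6 to 41.5 cpm among WT and 16.5 to 34.4 cpm among cmGch1 KO libraries (log2 fold change -0.40, SE 0.20, edgeR FDR 0.487). mt-Tp had 150 to 191 cpm in WT and 107 to 217 in cmGch1 KO, and mt-Te 58.2 to 105 and 61.7 to 115 cpm, so the groups overlapped in both. The 2 tRNAs above 0 were mt-Th, for histidine, at 0.07 (SE 0.19), and mt-Tl2, for leucine, at 0.09 (SE 0.13).

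The tRNAs before mt-Co1 varied more between libraries than those after it, a split made after the values were seen. The 8 tested tRNAs before mt-Co1 had a ratio of 2.52 to 5.96 between their highest and lowest library, and the 5 after it 1.72 to 2.63. Before mt-Co1, 7 of the 8 were lowest in cmGch1 KO 4 and 7 of the 8 were highest in WT 6. cmGch1 KO 4 also had the fewest tRNA counts per 1000 mRNA counts, 1.44, against 1.80 to 2.74 in WT and 2.11 to 2.65 in the other cmGch1 KO libraries. It had the fewest rRNA counts per 100 mRNA counts, 5.40, and the highest light-strand share, 3.93%. The log2 ratio of tRNA to mRNA differed between genotypes by less than the spread between libraries (difference -0.05, SE 0.16, exact permutation p = 0.753). Along the genome, the 13 tested genes from mt-Rnr1 to mt-Co1 all had log2 fold changes below 0, from -0.54 to -0.11, and of the 15 after mt-Co1, 9 had values below 0 and 6 above. Without cmGch1 KO 2 and 3 these counts below 0 were 12 of 13, with mt-Nd2 at 0.04, and 7 of 15. Scaled to the mitochondrial total they were 11 of 13, with mt-Nd1 at 0.03 and mt-Nd2 at 0.09, and 2 of 15. Neighbours on 1 precursor and in the same libraries are not independent of each other.

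The other 8 tRNAs were too low to test. mt-Ta, mt-Tg and mt-Tr, for alanine, glycine and arginine, had 19 to 128 counts per library. mt-Tv, mt-Ts1, mt-Tk and mt-Tt, for valine, serine, lysine and threonine, had 0 to 5 counts. mt-Td, for aspartate, had 0 counts in each of the 12 libraries, which allows up to 0.0791 cpm in the deepest library and 0.151 cpm in the shallowest if 0 is taken to allow 3 counts. Of these low tRNAs, mt-Tv lies between the rRNAs, mt-Ts1 and mt-Td between mt-Co1 and mt-Co2, and mt-Tk between mt-Co2 and mt-Atp8.

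Nuclear genes that make and process these RNAs were described from lists. Of 24 genes for transcription and replication of the mitochondrial genome 21 were tested and none was called, with 14 below 0 and a median log2 fold change of -0.11. Smallest in p were Mgme1, an exonuclease of mitochondrial DNA, with 23.9 ± 1.02 and 20.9 ± 1.54 cpm in WT and cmGch1 KO (log2 fold change -0.20, SE 0.07, edgeR FDR 0.219), Tfb2m, a transcription initiation factor (-0.16, SE 0.06), and Mterf2, of the mitochondrial transcription termination factor family (-0.24, SE 0.12). Of 23 listed genes for RNA processing and stability 21 were tested, none was called and 15 were below 0, with a median of -0.08. In this list Fastkd3 (-0.25, SE 0.10) and Fastk (-0.16, SE 0.08), of the FASTK family of RNA-binding proteins, had values below 0, and Mtpap, the mitochondrial poly(A) polymerase, had a value above (0.15, SE 0.07). Of 23 listed genes for rRNA and tRNA modification 22 were tested and none was called, with 16 below 0 and a median of -0.06. Smallest in p were Nsun4 (-0.17, SE 0.07) and Mettl15 (-0.21, SE 0.12), which methylate mitochondrial rRNA, and Mto1, which modifies tRNA (-0.10, SE 0.06).

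The nuclear partners of the mitochondrial mRNAs leaned one way. Of 73 listed nuclear OXPHOS subunits 72 were tested, none was called by edgeR, and each of the 72 had a log2 fold change below 0, between -0.40 and -0.01, with a median of -0.16, but scaled to the mitochondrial total 66 of the 72 were above 0, with a median of 0.08. Over all tested genes 53.3% were below 0, and that scaling moved their median from -0.01 to 0.22. By library size alone 65 of the 72 were below 0. Of the 72, 66 were below 0 without WT 4 (median -0.08) and 63 without cmGch1 KO 4 (median -0.09). Without cmGch1 KO 2 and 3 all 72 were below 0, with a median of -0.20. Subunits measured in the same libraries are not independent of each other. DESeq2 called 1 of the 72, as lower, where 3.32% of all genes were called and 1.38% called lower. With 1 surrogate variable edgeR called 9, all lower, where 5.67% of all genes were called and 2.95% called lower. At an unadjusted p under 0.05 there were 2 of the 72, against 4.51% of all tested genes in that direction. The 3 with the smallest p were Uqcrc1 and Uqcrc2, core proteins of complex III, at -0.20 (SE 0.09) and -0.18 (SE 0.09), and Ndufa9, of complex I, at -0.18 (SE 0.08). Their summed level was lowest in cmGch1 KO 4, at 33545 cpm, and was 40812 and 41232 cpm in cmGch1 KO 2 and 3, inside the WT range of 38468 to 51506 cpm. The libraries with the lowest mitochondrial share were therefore not those with the lowest nuclear OXPHOS sum.

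Markers of other cells were set beside these values, and their part in them was not tested. All 5 macrophage markers tested had values above 0, none called, and all 5 had an unadjusted p under 0.05, against 7.01% of all tested genes that were higher at that level. Their sums were 102 to 117 cpm in WT and 118 to 143 cpm in cmGch1 KO libraries and did not overlap. All 6 fibroblast markers were above 0, none called and 2 with an unadjusted p under 0.05, with sums of 741 to 990 and 849 to 1028 cpm, the highest in cmGch1 KO 2. Of 4 markers of atrial myocytes, 3 were above 0 and 1 below, and 1 was called higher, against 0.677% of all tested genes. They summed to 742 cpm in cmGch1 KO 2 and 546 cpm in cmGch1 KO 3, against 74.3 to 546 cpm in WT. Of 5 smooth muscle and pericyte markers 1 was called higher, but 3 were below 0, with a median log2 fold change of -0.06. Of 5 endothelial markers none was called and 4 were above 0. All 5 erythroid markers were below 0, none called, with a median of -0.39. Without cmGch1 KO 2 and 3 none of these markers was called. The 3 adipocyte markers were too low to test. The sum of the cardiomyocyte markers was 52268 and 53304 cpm in cmGch1 KO 2 and 3, below every WT library. The lowest sum was 51461 cpm in cmGch1 KO 1, whose mitochondrial share was 21.3%. The part of these sums in the results was not tested.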

How the data were processed

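RNA-seq of the left ventricle was analysed for 6 WT and 6 cmGch1 KO mice, grouped by the sample labels. According to the study's methods, libraries were stranded and paired-end, and reads were aligned with HISAT2 and counted with featureCounts. The submitters' processing notes name GRCm38, HISAT2 and SAMtools. The authors deposited raw counts per gene, and a table of normalised values on a log2 scale that was used in 1 alternative only. Of 26921 identifiers, 26582 were found in GENCODE M21, which gave symbols, classes, strands and sequences. Depth was 19921398 to 37917806 counts per library.

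Genes that passed 3 cpm in 6 or more libraries were tested in edgeR 4.0.16 (R 4.3.3) with TMM, a quasi-likelihood fit on genotype and Benjamini-Hochberg adjustment over all 11225 genes, with an FDR threshold of 0.05. Shares and ratios were tested by exact permutation over all 924 splits, two-sided, where the smallest p is 0.00216 (0.00476 for 6 against 4), adjusted over 12 library-level values or 13 mRNAs. Nuclear copies were found with BLAST+ 2.17.0 against M21 transcripts. The fit was tested on simulated data. The study's methods name littermate controls and animals from more than one cage, but the sources used here tie no library to a litter or cage, so p-values measure the spread between these libraries. All mt- rows are named, with Gch1, sex-linked genes, the 3 genes with the smallest p in nuclear lists without calls, and up to 10 copies with a mean over 1 cpm. The alternatives were other scalings (size factors of DESeq2, library size, nuclear genes, the mitochondrial total), DESeq2 1.42.0, other filters, covariates (replicate number, sex-linked expression, 1 surrogate variable from sva 3.50.0), the deposited log2 values in limma 3.58.1, and each library left out. The members and lists were chosen with earlier results of these data known.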

Additional observations from a re-analysis of the deposited data

Results flagged for a closer look

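In 122 groups of 6 values examined by Dixon's criterion, 9 had a library that stood apart from the other 5. Chance alone gives about 1 in 20 groups. cmGch1 KO 2 stood apart within its group for mt-Atp8, at 105 cpm against 11.3 to 46.0 cpm in the other 5 libraries. It stood apart also in the shares of mitochondrial mRNA counts held by mt-Co2 (2.22%), mt-Atp8 (0.0816%) and mt-Co3 (2.80%), where the other cmGch1 KO libraries had at most 0.942%, 0.0225% and 1.09%. WT 1 stood apart for mt-Nd3, at 285 cpm against 151 to 197 cpm, and for the share of mt-Nd3, at 0.167% against 0.0723% to 0.0999%. All 6 are values of mRNAs from mt-Co2 to mt-Nd3, the stretch with near-identical nuclear copies, where only mt-Atp8 has no annotated copy.

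The other 3 are of tRNAs with few counts. WT 6 stood apart for mt-Ta, at 5.25 cpm against at most 2.14 cpm in the other WT libraries. WT 1 stood apart for mt-Tk, at 0.155 cpm against at most 0.058 cpm, and cmGch1 KO 6 for mt-Ts1, at 0.0276 cpm, which is 1 count, against 0 in the other 5 libraries.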

How the results depend on the processing

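No mitochondrial gene was called in any of the 26 fits, and the lowest adjusted p of a member lay between 0.077 (DESeq2) and 0.741 (without cmGch1 KO 2 and 3). Leaving out each library in turn also gave 0 calls among the members. Of the values that answer a comparison, 367 of 376 stayed on their side of the threshold and kept their direction or, where there is no test, moved by less than the spread; 1 of these, the members' median, changed sign, to 0.022 scaled to the mitochondrial total. Of 891 values of single genes 804 kept direction and side; the other 87 changed sign, without any passing the threshold, and the cause was not tested. Depth limits the tRNAs with under 10 counts. Counts of nuclear OXPHOS subunits called, 0 in the test reported, were 1 with DESeq2 and 9 with 1 surrogate variable. Of all genes, DESeq2 called 3.32% and the fit with the surrogate variable 5.67%, against 1.12% in the test reported. The subunits called were all lower, and 1.38%, 2.95% and 0.445% of all genes were called lower in the same order. RNA processing genes called were 2 with the surrogate variable.

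Without cmGch1 KO 2 and 3, the differences in share were 0.176 percentage points for all mitochondrial counts, 0.389 for mRNA and -0.101 for complex V, and, of mRNA counts, -0.175 for mt-Nd1, -0.00276 for mt-Atp8, -0.0987 for mt-Atp6 and -0.00369 for mt-Nd4l. Log2 fold changes there were 0.039 for mt-Nd2, -0.19 for mt-Atp8, -0.0099 for mt-Nd4l, 0.060 for mt-Nd4, 0.12 for mt-Nd5, 0.11 for mt-Te and 0.038 for mt-Cytb. With sex-linked expression as covariate these 7 were 0.039, -0.19, -0.015, 0.059, 0.12, 0.11 and 0.038. Scaled to the mitochondrial total, which moved the median of all tested genes from -0.01 to 0.22, values above 0 were 0.034 for mt-Nd1, 0.086 for mt-Nd2, 0.19 for mt-Atp6, 0.0094 for mt-Co3, 0.055 for mt-Nd4, 0.17 for mt-Ts2, 0.15 for mt-Nd5, 0.21 for mt-Te and 0.034 for mt-Cytb. By library size alone mt-Atp6 had 0.033, mt-Ts2 0.012, mt-Nd5 0.022 and mt-Te 0.066, and with the surrogate variable mt-Te had 0.016. In the deposited normalised values mt-Nd3 had -0.080 and mt-Nd4l -0.083. On a log2 scale the share of complex V differed by -0.085 and that of mt-Atp6 by -0.095.

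With each library left out in turn, the range was -0.196 to 0.265 percentage points for complex V, -0.127 to 0.0768 for the log2 ratio of tRNA to mRNA, and for shares of mRNA -0.194 to 0.255 for mt-Atp6, -0.00234 to 0.0127 for mt-Atp8, -0.298 to 0.0863 for mt-Co2, -0.357 to 0.161 for mt-Co3, -0.152 to 0.438 for mt-Nd1, -0.0032 to 0.0301 for mt-Nd3 and -0.0162 to 0.0556 for mt-Nd4l. Log2 fold changes ran from -0.36 to 0.15 for mt-Atp6, -0.26 to 0.47 for mt-Atp8, -0.11 to 0.20 for mt-Nd3, -0.19 to 0.21 for mt-Nd4l, -0.13 to 0.040 for mt-Nd5, -0.070 to 0.13 for mt-Nd6, -0.12 to 0.075 for mt-Te, -0.023 to 0.19 for mt-Th, -0.018 to 0.16 for mt-Tl2 and -0.18 to 0.069 for mt-Ts2. Complex V and the shares of mt-Atp6, mt-Atp8, mt-Nd3 and mt-Nd4l turned without cmGch1 KO 2, and the ratio of tRNA to mRNA without cmGch1 KO 4. An alternative added after seeing the data left out mt-Co2 to mt-Nd4l and changed no direction. In another added then, the difference in the summed share of these 6 in mRNA counts ran from -0.87 to 0.58 percentage points with each library left out.

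Same-numbered libraries of the 2 genotypes deviated together in some pairs only, with correlations from -0.128 to 0.676, and 3 of 6 correlated best with their own number. Not every pair was above 0.1, so the numbers were not taken to pair the animals, which does not exclude a pairing. With the replicate number as a block 0 members were called, where 1.67% of all genes were called, against 1.12% without the block. An unadjusted p under 0.05 was found for 7 members, all lower and all from mt-Rnr1 to mt-Co1, against 2 without the block. The share of all genes at that level under the block is not given here, and these neighbours are not independent of each other. mt-Nd3 and mt-Nd4l had log2 fold changes of -0.078 and -0.078 under the block. The exact sign-flip test keeps the difference of the means, so no share or ratio could change direction there. These values are counted as kept in the totals above.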

Other observations

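Across the 12 libraries, the summed mitochondrial mRNA, as log2 counts per 1000000 counts of nuclear genes, was set against 4 other sums. With mitochondrial rRNA the Pearson r was 0.758 (permutation p = 0.00435, adjusted p = 0.0174 over the 4) and Spearman's rho 0.587 (permutation p = 0.0498, adjusted p = 0.0996). cmGch1 KO 2 and 3 lie apart from the rest in mRNA. Within the 10 libraries with Y-linked expression r was 0.273 and rho 0.285 (permutation p = 0.456 and 0.43), and without cmGch1 KO 2 and WT 6, the libraries farthest from the median rRNA level, r was 0.571 (permutation p = 0.086). The relation therefore rests on these libraries. With mitochondrial tRNA r was 0.615 over the 12 libraries (permutation p = 0.0309, adjusted p = 0.0619) and rho 0.622 (permutation p = 0.0346, adjusted p = 0.0996), and without cmGch1 KO 2 and 4, the farthest from the median tRNA level, r was 0.689 (permutation p = 0.0254). With tRNA, nuclear OXPHOS subunits and total counts, r within the 10 libraries was 0.223, -0.441 and -0.323, and none had an adjusted permutation p under 0.537.

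By their length, 3 mRNAs of the annotation, mt-Co3, mt-Nd4 and mt-Cytb, run 1 base past a whole number of codons and so end in an incomplete stop codon. These had counts of very different spread, with an SD of log2 cpm within genotype of 0.98, 0.29 and 0.28.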
